A study of Mus musculus with 6 samples.

Results

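The 10 genes described here encode surface antigens by which mouse blood stem cells and early progenitors are recognised and sorted: Cd34, Ly6a, Ly6e, Cd48, Slamf1, Cd244, Procr, Esam, Cd93 and Cd27. They were chosen by gene symbol from the 33924 gene rows of the deposited count table, and all 10 were found there. The libraries came from mouse acute myeloid leukaemias driven by MLL-AF9, a fusion of the genes Kmt2a and Mllt3, which a retrovirus had carried into bone marrow cells. In 3 libraries (LSK 44, LSK 45 and LSK 46, after the numbers in their titles) the cells of origin were LSK cells, which lack lineage markers, carry Sca-1 and Kit and include the stem cells. In the other 3 libraries (GMP 5, GMP 11 and GMP 19) they were granulocyte-macrophage progenitors, or GMP. Both groups shared the fusion, a GFP tag, expansion in vitro, passage through irradiated C57BL/6 mice that also received wild-type marrow, and culture with SCF, IL-3 and IL-6 before RNA was taken. The labels state the cell of origin, not the surface phenotype of the cultured leukaemia, and no library of untransformed LSK cells or GMP was analysed here. Nor do they tie each library to its own transduction or animal, so the p-values rest on library-to-library variation that could be technical.

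These antigens belong to several protein families. Sca-1, the product of Ly6a, and LY6E are small proteins of the Ly6 family that are held in the membrane by a lipid anchor, and Sca-1 is the S in LSK. CD150 (Slamf1), CD48 and CD244 are SLAM receptors, immunoglobulin-like proteins that bind one another between blood cells. In normal mouse marrow, stem cells carry CD150 and lack CD48 and CD244, and progenitors gain CD48 as they commit. CD34 is a sialomucin that is low on resting adult mouse stem cells and high on GMP. EPCR (Procr), ESAM, CD93 and CD27 have each been used to refine stem or progenitor gates, and the first 3 of them are also found on endothelium. In the widely used MLL-AF9 mouse model, leukaemia stem cells have been described as resembling GMP, with little Sca-1.

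Sequencing depth was 16640929 (LSK 44) to 33885428 (GMP 11) counts per library. CPM below is the count of a gene for each 1e+06 counts of tested genes after scaling between libraries, and is compared only for the same gene across libraries. Runs of 3 values follow the order LSK 44, 45 and 46, or GMP 5, 11 and 19. Of the 10 genes, 7 passed the filter on low counts and were tested among 13406 genes with edgeR's quasi-likelihood test. Slamf1, Procr and Esam did not pass it. Ly6a, Ly6e and Cd48 were called higher in LSK-derived leukaemias at an adjusted p below 0.05, none was called higher in GMP-derived ones, and Cd34, Cd244, Cd93 and Cd27 were not called. Over all tested genes, 25.7% were called in either direction, 11.8% higher in LSK-derived and 13.9% higher in GMP-derived libraries. The median log2 fold change (LSK-derived minus GMP-derived) of the 7 tested genes was 0.35, beside 0.01 over all tested genes. Markers of cells that the host or support marrow could have added were in part absent and in part present. Cd3e, Ms4a1, Pax5, Emcn, Cldn5, Col1a2 and Dcn had 0 counts in every library. Of the B cell, T and NK cell, endothelial and stromal lists, Cd79b, Klrb1c and Vwf were called higher in LSK-derived libraries and Igll1 and Pdgfrb higher in GMP-derived ones. The call of Igll1 was lost in 5 of the 6 fits without a library, with limma voom and with no filter. That of Pdgfrb was lost in 2 of the 6 and with no filter, and the others held in all 6. Pecam1 (114 to 325 CPM) and Flt1 (4.92 to 32.8 CPM) were expressed and not called, and the part of these genes in the results was not tested. Kit, Mpo, Ctsg and Cebpa, markers of immature myeloid cells, were detected in every library, with Mpo as low as 13.8 CPM in GMP 5.

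**Figure D1:**
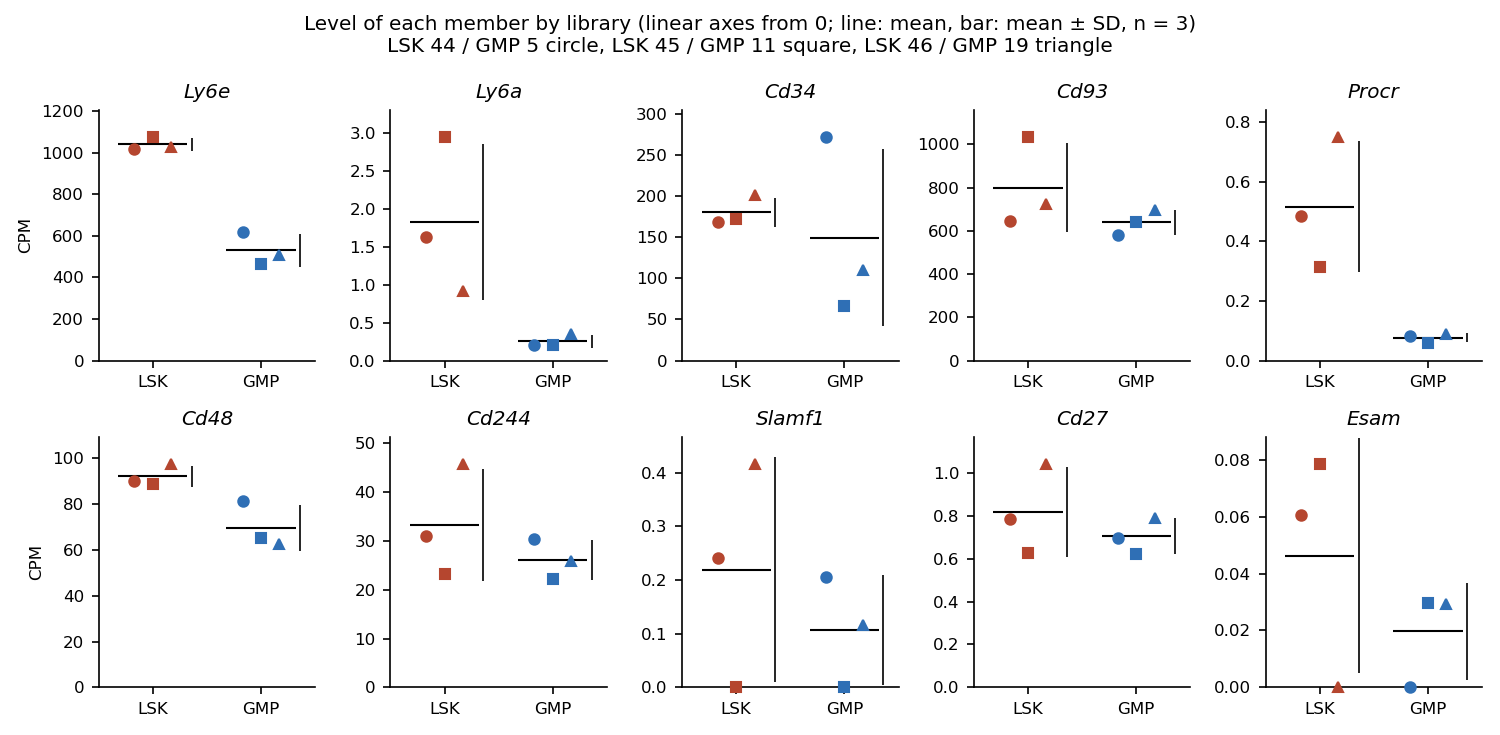
CPM of each of the 10 genes in each library, on linear axes that start at 0 and differ between panels, with LSK-derived libraries in red, GMP-derived libraries in blue, the mean as a line and mean ± SD as a bar (n = 3). Ly6e, Ly6a, Cd48 and Procr, which was not tested, show no overlap between groups, with the LSK-derived libraries above. Of all tested genes, 22.5% did so in this direction and 45.4% in either direction. Cd34 shows 1 GMP-derived library, GMP 5, above all others.

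Ly6e, the most abundant member per transcript length, was called higher in LSK-derived libraries. It stood at 1017, 1075 and 1026 CPM in the LSK-derived group, and at 619, 463 and 507 CPM in the GMP-derived group. All LSK-derived libraries lay above all GMP-derived ones, as they did for 22.5% of all tested genes. The group means were 1039 ± 30.9 and 529.8 ± 80.0 CPM (SD, n = 3 each), a log2 fold change of 0.97 ± 0.11 (approximate SE) or 1.96-fold (adjusted p = 0.00191). It was called in each of 11 alternative fits, with log2 fold changes from 0.88 to 1.09. LY6E, once named Sca-2, is found on thymocytes and many other blood cells and is inducible by interferon, so it is a less restricted antigen than Sca-1.

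Ly6a, the gene of Sca-1 itself, was far less abundant per transcript length and differed by a larger factor. Its counts were 27, 75 and 22 in the LSK-derived group, and 5, 7 and 12 in the GMP-derived group, of which GMP 11 and GMP 19 were sequenced more deeply than any LSK-derived library. These counts correspond to 1.63, 2.94 and 0.916 CPM against 0.205, 0.208 and 0.352 CPM, and the groups did not overlap. The log2 fold change was 2.81 ± 0.51, or 7.02-fold (adjusted p = 0.00977), and between 2.27 and 3.14 in the 11 alternative fits, all of which called it. Ly6a passed the filter on low counts through the LSK-derived group alone, where it was higher. With no filter its log2 fold change was 2.80 (edgeR adjusted p = 0.00478). LSK 45 held 75 of the 124 counts in the LSK-derived group, and without it the log2 fold change was 2.27 (adjusted p = 0.0187). Leukaemias that arose in cells sorted for Sca-1 thus held more of its transcript than GMP-derived ones, at a level per transcript length that most tested genes exceeded.

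Part of the Ly6a transcript cannot be told from those of its neighbours by sequence. Of all 50-base words in its longest coding transcript, 10.0% also occur in a transcript of another gene, among them Ly6c1, Ly6i and Ly6c2. Ly6c2, the abundant monocyte antigen gene, stood at 841, 1155 and 636 CPM in the LSK-derived group and at 293, 874 and 827 CPM in the GMP-derived group. These groups overlapped, and Ly6c2 was not called (log2 fold change 0.40 ± 0.43, adjusted p = 0.531). Ly6a counts per 1000 Ly6c2 counts were 1.94, 2.55 and 1.44 in LSK-derived libraries, against 0.698, 0.238 and 0.425 in GMP-derived ones. This ratio, like Ly6a itself, did not overlap between groups. It covers Ly6c2 alone among the genes that share words with Ly6a. The part of shared reads in the counts of Ly6a was not tested. No 50-base word of the longest Ly6e transcript was shared.

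Among the other genes of the Ly6 family, 8 of 16 were tested, 1 was called higher in LSK-derived libraries, none was called higher in GMP-derived ones and 7 were not called. The called gene was Ly6g, the neutrophil antigen gene, at 3.81, 2.71 and 3.12 CPM against 0.984, 0.505 and 1.29 CPM (log2 fold change 1.79 ± 0.36, adjusted p = 0.0142). Its call was lost without LSK 44 (adjusted p = 0.0557). Of the 8 neutrophil markers, 6 were tested, and Ly6g alone was called higher in LSK-derived libraries. S100a9 and Ngp were called higher in GMP-derived ones (log2 fold changes -5.97 and -5.45, adjusted p = 0.0476 and 0.0490). Each of these 2 calls was lost in 5 of the 6 fits without a library. Plaur, a Ly6 family gene that encodes the urokinase receptor, was at 23.2 ± 2.81 and 27.6 ± 10.9 CPM and was not called. Ly6k, singled out after its values were seen, had 0 counts in GMP 5 and 10.8 to 27.9 CPM in the other 5 libraries. The family's genes on chromosome 15 stand in the order Ly6e, Ly6i, Ly6a, Ly6c1, Ly6c2, Ly6g and Ly6f among those in the table (RefSeq, GRCm38.p6). Ly6i, which stands between Ly6e and Ly6a, did not exceed 0.196 CPM and was not tested.

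Cd34 was not called, and the GMP-derived libraries differed widely among themselves. It was at 169, 173 and 201 CPM in the LSK-derived group, and at 272, 66.9 and 110.3 CPM in the GMP-derived group. GMP 5 lay above every LSK-derived library, and GMP 11 and GMP 19 lay below all of them. The highest GMP-derived level was 4.06 times the lowest, against 1.19 times in the LSK-derived group. The SD of its log2 CPM in the GMP-derived group (1.02) exceeded that of 98.3% of tested genes with a mean of at least 5 CPM. The log2 fold change was 0.27 ± 0.48 (adjusted p = 0.714), with an interval of 2 approximate SE from -0.69 to 1.24, so a difference of more than 2-fold in favour of the LSK-derived group lies inside it. Without GMP 5 it was 1.02 and was called (adjusted p = 0.0285), and without GMP 11 it was -0.080.

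Other genes set GMP 5 apart beside Cd34. The summed level of the 8 mast cell and basophil markers was 153 CPM in GMP 5, 31.9 in GMP 11 and 27.4 in GMP 19, and 95.6 to 146 CPM in the LSK-derived libraries. In GMP 5 this sum held 88.5 CPM of Cpa3, the mast cell carboxypeptidase gene, which was at most 2.87 CPM elsewhere, while Tpsab1 had 0 counts in every library. The sums of the LSK-derived libraries were mostly Gata2, at 64.5, 60.1 and 108 CPM. Gata2 was at 45.6, 13.8 and 12.0 CPM in the GMP-derived group. Mpo and Elane, the genes of 2 granule proteins, were at 13.8 and 65.5 CPM in GMP 5, against at least 316 and 328 CPM in the other 5 libraries. Other myeloid markers did not all follow them. Prtn3 was lowest in GMP 5 (237 CPM, against 525 to 858 CPM elsewhere), while Ctsg was highest there (2086 CPM, against 1038 to 2044 CPM elsewhere). The part of these differences in the level of Cd34 was not tested, and fewer cells with a transcript and less of it per cell cannot be told apart in these bulk libraries. The genes nearest to Cd34 in pattern over the 6 libraries were Ston2, an endocytic adaptor gene, and Il2ra, which encodes CD25. Their root mean square differences from Cd34 in centred log2 CPM were 0.226 and 0.237, where the median over the 9349 genes compared was 0.676. Il2ra was at 15.0, 15.3 and 18.2 CPM in the LSK-derived group, and at 25.2, 7.12 and 15.5 CPM in the GMP-derived group, so that GMP 5 was again the highest library and GMP 11 the lowest.

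An exon of Cd34 overlaps the gene Gm16897 on the opposite strand, and the strand setting of the counting is not given in the sources used here. Gm16897 had 10 to 37 counts per library, between 0.359% and 0.665% of those of Cd34. The region before the Cd34 start is shown because this member split the GMP-derived group. The 250 bases (GRCm38.p6, RefSeq, chr1:194938571-194938820, + strand) were searched on both strands for 7 short words. These were the RUNX word TGTGGT, the ETS word AGGAAG, the GATA word AGATAA, the MEIS word TGACAG, the GAS word TTCNNNGAA bound by STAT proteins, the C/EBP word TTGCNNAA and the E-box word CAGCTG. Matches stand in capitals. A match describes the letters and is not evidence of binding.
Cd34: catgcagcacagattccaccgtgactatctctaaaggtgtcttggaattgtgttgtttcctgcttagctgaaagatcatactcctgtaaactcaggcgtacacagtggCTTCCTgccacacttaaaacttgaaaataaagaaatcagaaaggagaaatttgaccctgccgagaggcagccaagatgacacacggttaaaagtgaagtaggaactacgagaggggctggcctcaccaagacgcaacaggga
The single match was to the ETS word on the opposite strand, which 29.5% of 32851 promoter windows of this length also hold.

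Of the partners of CD34, Crkl, an adaptor that binds its cytoplasmic tail, was at 87.9 ± 2.19 and 89.3 ± 5.32 CPM and was not called (log2 fold change -0.02 ± 0.07). Slc9a3r1 and Selp were called higher in LSK-derived libraries (log2 fold changes 0.27 ± 0.07 and 1.56 ± 0.43, adjusted p = 0.0257 and 0.0382). Slc9a3r1, a scaffold protein gene, was not called in 4 of the 6 fits without a library, nor was Selp, the gene of P-selectin, in any of the 6 or with DESeq2. Podxl, a sialomucin gene of the CD34 family that was not tested and was singled out after its values were seen, was at 8.29, 0.0392 and 16.1 CPM in the LSK-derived group while no GMP-derived library exceeded 0.264 CPM.

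Cd93 encodes the receptor once known as AA4.1, an antigen of fetal stem cells and early B progenitors that is also carried by myeloid cells and endothelium. It was at 643, 1033 and 724 CPM in the LSK-derived group, and at 581, 639.7 and 694 CPM in the GMP-derived group. The groups overlapped, and LSK 45 stood apart as the highest library. The means of 800.1 ± 206 and 639 ± 56.5 CPM gave a log2 fold change of 0.33 ± 0.18 (adjusted p = 0.229), with an interval of 2 approximate SE from -0.03 to 0.68. It was called in none of 11 alternative fits, and without LSK 45 the log2 fold change was 0.10. The summed level of 9 monocyte and macrophage markers was also highest in LSK 45 (1729 CPM, against 549 to 1336 CPM in the other 5 libraries). This sum was mostly Ly6c2 (1155 CPM in LSK 45) and Ccr2 (480 CPM). Cx3cr1 and Mrc1 were also highest in LSK 45, but Emr1 was highest in GMP 5, Csf1r and Cd14 in GMP 19, and C1qa and C1qb in LSK 46. The part of these markers in the level of Cd93 was not tested. Of the 5 other genes on the list of CD93 relatives and ligands, Igfbp7, which encodes a secreted CD93 ligand, was called higher in LSK-derived libraries. Igfbp7 was at 2.42, 0.549 and 2.67 CPM in the LSK-derived group, and had 0, 3 and 1 counts in the GMP-derived group (edgeR log2 fold change 5.29, adjusted p = 0.00819). It passed the filter on low counts through the LSK-derived group alone, where it was higher. Thbd, the thrombomodulin gene, was not called (41.9 ± 9.12 against 34.6 ± 16.2 CPM), and the remaining 3 were not tested, with Clec14a and Mmrn2 at 0 counts.

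Of the SLAM antigen genes, those of the progenitor antigens, Cd48 and Cd244, were detected in every library, and that of the stem cell antigen CD150, Slamf1, was barely detected. Cd48 was at 89.9, 89.0 and 97.5 CPM in the LSK-derived group, and at 81.2, 65.4 and 62.7 CPM in the GMP-derived group. All LSK-derived libraries lay above all GMP-derived ones. The difference was small, 92.2 ± 4.69 against 69.8 ± 10.0 CPM (log2 fold change 0.40 ± 0.11, 1.32-fold, adjusted p = 0.0364). It was called with each of 5 other settings over all 6 libraries, but in 1 of the 6 fits without a library, that without GMP 5. In the other 5 the log2 fold change was 0.33 to 0.43 and the adjusted p up to 0.122. The transcript of CD48 was thus slightly higher in LSK-derived leukaemias over all 6 libraries, and the surface antigen itself was not measured here.

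Cd244 was at 31.0, 23.2 and 45.7 CPM in the LSK-derived group, and at 30.3, 22.1 and 25.8 CPM in the GMP-derived group. LSK 46 stood well above the other libraries, and LSK 44 and LSK 45 lay close to GMP-derived values. The log2 fold change was 0.35 ± 0.25 (adjusted p = 0.347, interval of 2 approximate SE from -0.15 to 0.86), and 0.06 without LSK 46. LSK 46 was also the library with the highest summed level of 11 megakaryocyte and erythroid markers, 97.6 CPM against 2.32 to 41.3 CPM in the others, and its part in the level of Cd244 was not tested. Slamf1 had 4, 0 and 10 counts in the LSK-derived group, and 5, 0 and 4 counts in the GMP-derived group. The 0 counts allow up to 0.118 CPM in LSK 45 and 0.0891 CPM in GMP 11. The pooled level was 2.17 times as high in the LSK-derived libraries, with an exact 95% interval of 0.874 to 5.68 that covers counting error only, so no difference was detectable at this depth.

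**Figure D2:**
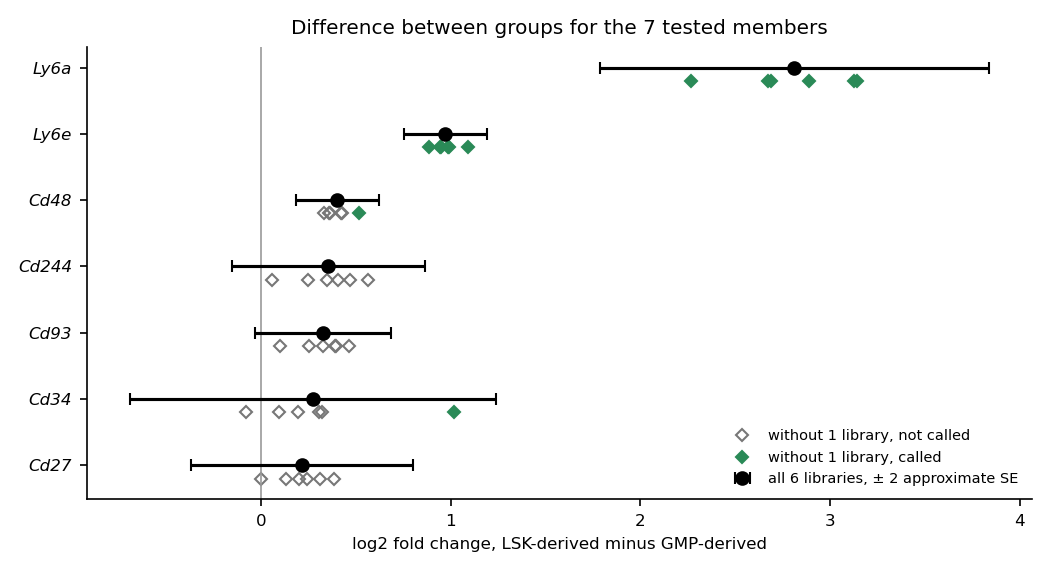
Log2 fold change of the 7 tested genes (black, with ± 2 approximate SE) and in the 6 fits without 1 library (diamonds, filled where called at an adjusted p below 0.05). Ly6a and Ly6e keep filled diamonds throughout, Cd48 and Cd34 have 1 filled diamond each, and Cd244, Cd93 and Cd27 have none.

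The SLAM receptor genes neighbour each other on chromosome 1, in the order Cd244, Ly9, Slamf7, Cd48, Slamf1, Cd84 and Slamf6 (RefSeq, GRCm38.p6, where Cd244 is named Cd244a). Neighbours differed in level and in direction. Ly9, the gene of CD229, was at 31.4, 35.8 and 22.0 CPM in the LSK-derived group and at 71.9, 70.8 and 66.1 CPM in the GMP-derived group. It was thus higher in every GMP-derived library (log2 fold change -1.23 ± 0.17, adjusted p = 0.00392), opposite to Cd48. Cd84 was at 29.1 ± 3.72 and 43.7 ± 15.6 CPM and was not called (log2 fold change -0.58 ± 0.25, adjusted p = 0.138). Slamf7 and Slamf6 did not exceed 0.196 CPM in any library. Slamf9, outside this run of genes, was at 1.57, 1.92 and 1.29 CPM against 8.07, 3.15 and 4.98 CPM, and was called, higher in the GMP-derived group (log2 fold change -1.75 ± 0.38, adjusted p = 0.0169). That call was lost without LSK 44 or LSK 46 (adjusted p up to 0.0689). Of all 9 SLAM receptor genes, 5 were tested, Cd48 was called higher in LSK-derived libraries and Ly9 and Slamf9 in GMP-derived ones.

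The regions before the starts of the 3 SLAM members are shown because these neighbours ranged from abundant to barely detected. Each is 250 bases from RefSeq on GRCm38.p6, + strand, with matches to the 7 words above in capitals: chr1:171681742-171681991 for Cd48, chr1:171558943-171559192 for Cd244 and chr1:171766882-171767131 for Slamf1.
Cd48: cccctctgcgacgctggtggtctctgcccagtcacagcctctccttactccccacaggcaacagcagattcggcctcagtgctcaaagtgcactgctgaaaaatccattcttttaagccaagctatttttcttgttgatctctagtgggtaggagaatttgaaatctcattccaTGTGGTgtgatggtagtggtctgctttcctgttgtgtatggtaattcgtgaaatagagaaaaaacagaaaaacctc
Cd244: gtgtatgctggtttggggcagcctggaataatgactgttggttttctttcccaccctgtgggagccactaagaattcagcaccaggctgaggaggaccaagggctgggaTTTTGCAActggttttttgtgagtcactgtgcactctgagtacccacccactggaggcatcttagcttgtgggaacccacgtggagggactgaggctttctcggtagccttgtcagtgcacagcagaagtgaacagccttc
Slamf1: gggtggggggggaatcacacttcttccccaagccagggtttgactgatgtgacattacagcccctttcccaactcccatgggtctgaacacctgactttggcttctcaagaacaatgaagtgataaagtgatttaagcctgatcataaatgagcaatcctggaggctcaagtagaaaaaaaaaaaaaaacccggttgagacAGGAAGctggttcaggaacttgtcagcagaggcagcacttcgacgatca
Each window held a single match, and each to a different word: RUNX in Cd48 (present in 14.0% of all windows of this length), C/EBP in Cd244 (9.56%, on the opposite strand) and ETS in Slamf1 (29.5%). None of these matches overlapped another. Such a window was matched for 6 of the 10 genes, and Ly6a, Ly6e, Esam and Cd93 were not matched.

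SLAM receptors signal through small adaptors that dock on their tails, and through phosphatases. Sh2d1b1, which encodes the adaptor EAT-2, was at 3.99, 6.01 and 3.04 CPM in the LSK-derived group and at 14.9, 20.4 and 29.7 CPM in the GMP-derived group. The groups did not overlap (log2 fold change -2.31 ± 0.34, adjusted p = 0.00536), and the call held in all 6 fits without a library. The related gene Sh2d1b2 did not exceed 0.0891 CPM, and whether reads were divided between the pair was not tested. Sh2d1a, which encodes SAP, the adaptor of lymphocytes, had 1 count in each group, and Cd2, whose product binds CD48 in the mouse, did not exceed 0.0410 CPM. Of the phosphatase genes, Ptpn6 (SHP-1) was called higher in GMP-derived libraries (298.9, 233 and 318 CPM in the GMP-derived group against 212, 179.9 and 226 CPM in the LSK-derived group, adjusted p = 0.0489). Ptpn11 (SHP-2) was called higher in LSK-derived ones (263 ± 18.1 against 219 ± 1.34 CPM, adjusted p = 0.0325). Each of these calls was lost in 5 of the 6 fits without a library, that of Ptpn11 also with no filter and that of Ptpn6 also with limma voom and upper quartile scaling. Inpp5d (SHIP-1) and Csk were not called.

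**Figure D3:**
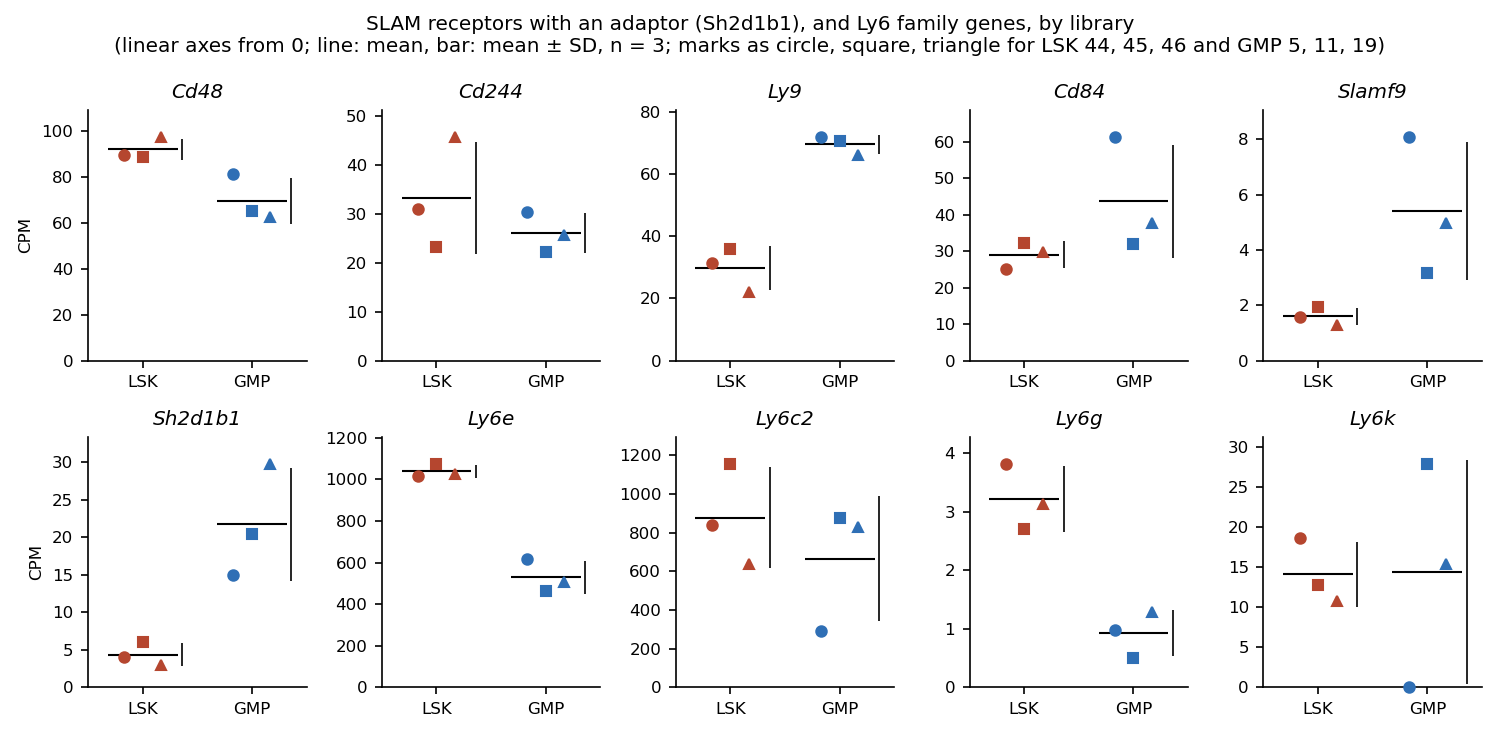
CPM by library of SLAM receptors and the adaptor gene Sh2d1b1 and of Ly6 family genes, on linear axes from 0 that differ between panels, with LSK-derived libraries in red, GMP-derived libraries in blue, the mean as a line and mean ± SD as a bar (n = 3). Cd48 is higher in LSK-derived libraries while Ly9, Slamf9 and Sh2d1b1 are higher in GMP-derived ones, and Ly6k is at 0 counts in GMP 5.

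Procr encodes EPCR, the receptor of activated protein C and a marker of highly purified stem cells. It had 8, 8 and 18 counts in the LSK-derived group, and 2, 2 and 3 counts in the GMP-derived group. Although the counts were too few for the filter, the groups did not overlap, at 0.314 to 0.750 against 0.0594 to 0.0880 CPM. The pooled level was 6.77 times as high in LSK-derived libraries, with an exact 95% interval of 2.95 to 18.1 for counting error only. In the fit with no filter on low counts Procr was called (log2 fold change 2.67, adjusted p = 0.0106), where 15.3% of 21599 genes were called in either direction, 6.65% higher in LSK-derived and 8.61% higher in GMP-derived libraries. With 3 libraries against 3, an exact two-sided permutation test of its CPM gave p = 0.1, the smallest it allows. Of the 10 endothelial markers, 4 were tested and 1, Vwf, the gene of von Willebrand factor, was called, higher in the LSK-derived group as Procr was (3.15, 3.53 and 4.29 CPM against 0.328, 0.386 and 0.821 CPM, adjusted p = 0.00342). Vwf is also on the list of megakaryocyte and erythroid markers. Of the 3 tested and not called, Pecam1 had the higher mean in LSK-derived libraries (244 ± 71.4 against 156 ± 38.3 CPM). Flt1 (8.59 ± 2.57 against 18.8 ± 13.9 CPM) and Plvap (1.10 ± 0.310 against 1.34 ± 0.425 CPM) had it in GMP-derived ones. Tie1 was not tested, with 16 counts over the LSK-derived libraries, 12 of them in LSK 46, against 3 over the GMP-derived ones. Cdh5 was not tested, with 19 counts over each group. Emcn and Cldn5 had 0 counts, and Kdr and Tek did not exceed 0.0785 CPM. The sum of all 10 endothelial markers, mostly Pecam1, was 200.4 to 339 CPM in LSK-derived and 149.9 to 197 CPM in GMP-derived libraries. The part of these markers in the level of Procr was not tested.

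Of the 8 other listed genes of the protein C pathway, 5 were tested and 1 was called, F2rl2, the gene of the thrombin receptor PAR3, which was higher in GMP-derived libraries (13.7, 9.07 and 4.91 CPM in the LSK-derived group against 33.2, 35.0 and 43.4 CPM in the GMP-derived group, log2 fold change -2.03 ± 0.35, adjusted p = 0.00995). F2rl3, the gene of the thrombin receptor PAR4, was at 7.14, 8.71 and 8.21 CPM against 6.07, 7.04 and 7.53 CPM and was not called (adjusted p = 0.338). Thbd, also in this pathway, was not called, and Proc, the protein C gene itself, had 0 counts.

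Esam, which encodes an adhesion molecule shared by stem cells, platelets and endothelium, had 3 counts over all LSK-derived libraries and 2 over all GMP-derived ones. Both totals are at or under the 3 counts that a count of 0 allows, so no ratio is given. Of 7 other adhesion genes listed with it, 4 were tested, and F11r, the gene of JAM-A, was called higher in LSK-derived libraries. F11r was at 7.80, 9.54 and 9.04 CPM in the LSK-derived group against 0.164, 0.801 and 1.52 CPM in the GMP-derived group (log2 fold change 3.36 ± 0.61, adjusted p = 0.0110). Those groups lay far apart, and the call held in all 6 fits without a library. Jam3 and Cxadr did not exceed 2.28 CPM and were not called.

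Cd27, a TNF receptor family gene whose product is found on T cells and on short-lived stem and progenitor cells, was low in both groups. It had 13, 16 and 25 counts in the LSK-derived group and 17, 21 and 27 in the GMP-derived group, or 0.786, 0.628 and 1.04 CPM against 0.697, 0.623 and 0.792 CPM. LSK 46 lay above every other library and the remaining values lay close together (log2 fold change 0.22 ± 0.29, adjusted p = 0.623), and the interval of 2 approximate SE ran from -0.37 to 0.80. Without LSK 46 the log2 fold change was -0.0027. Cd70, which encodes its ligand, had 0 counts in every library. Of its 5 tested signalling partners, 4 were not called, Traf2 and Traf3 among them, and Traf5 was called higher in GMP-derived libraries (1.33, 1.30 and 1.96 CPM against 3.24, 3.83 and 4.69 CPM, log2 fold change -1.35 ± 0.26, adjusted p = 0.0119, or 0.0525 without LSK 44).

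Levels per kilobase of the longest coding transcript set the members in one order. In LSK-derived libraries the means in CPM per kb were 456 ± 13.6 for Ly6e, 119.8 ± 30.8 for Cd93, 77.7 ± 3.96 for Cd48, 70.8 ± 6.92 for Cd34 and 8.85 ± 3.04 for Cd244. They were 1.92 ± 1.08 for Ly6a, 0.525 ± 0.134 for Cd27, 0.323 ± 0.138 for Procr, 0.0815 ± 0.0777 for Slamf1 and 0.0248 ± 0.0220 for Esam. Among neighbours in this order, Cd48 and Cd34, Cd27 and Procr, and Slamf1 and Esam overlapped over the 3 libraries, and the other pairs did not. In GMP-derived libraries the order differed by 1 exchange, with Cd27 (0.452 ± 0.0541 CPM per kb) above Ly6a (0.267 ± 0.0880 CPM per kb) and no overlap between them. There Cd48 and Cd34, Procr and Slamf1, and Slamf1 and Esam overlapped.

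The same scale places the members among all genes. Of 11693 tested genes with a transcript length, 99.1% lay below Ly6e in LSK-derived and 97.9% in GMP-derived libraries. For Cd93 the shares were 95.2% and 93.1%, and for Cd48 91.3% and 87.8%. Ly6a lay above 20.4% of these genes in LSK-derived and 5.94% in GMP-derived libraries, and Slamf1 above 1.57% and 0.889%. Ly6e, Cd93, Cd48 and Cd34 thus stood at the high end of the members, Cd244 between, and Ly6a, Cd27, Procr, Slamf1 and Esam at the low end. Taking the median transcript length in place of the longest changed no rank in either group.

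**Figure D4:**
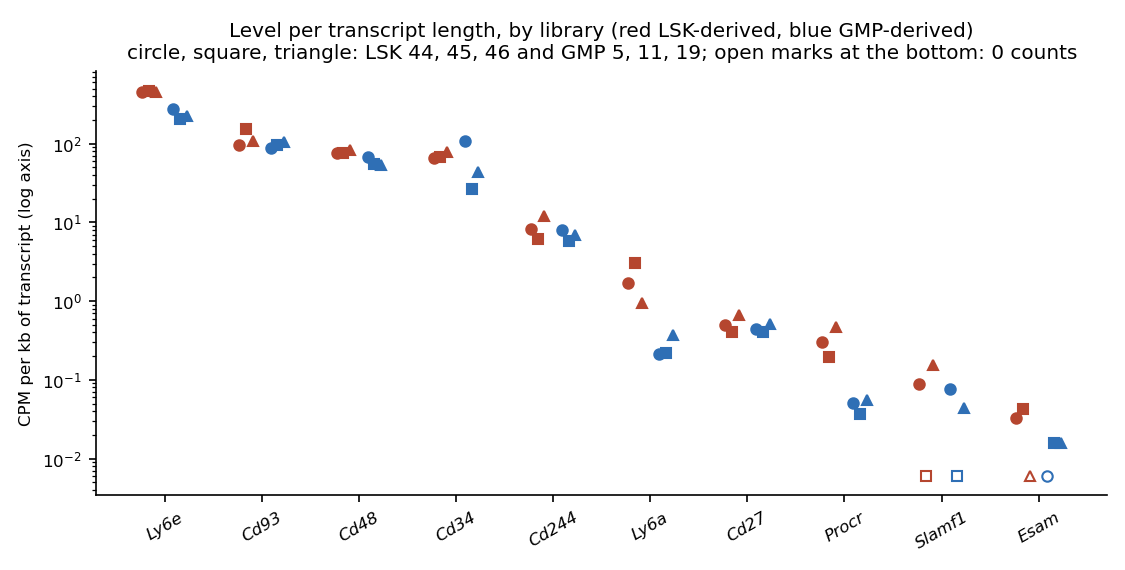
CPM per kb of the longest coding transcript in each library on a log axis, ordered by the LSK-derived mean, with LSK-derived libraries in red and GMP-derived libraries in blue. Levels span from Ly6e above 200 CPM per kb to Esam below 0.1, libraries with 0 counts of Slamf1 or Esam are drawn as open marks at the bottom, and Ly6a and Procr show the widest gaps between groups.

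Patterns over the 6 libraries were compared by the root mean square difference of centred log2 CPM. Nearest to Ly6e were Atxn1 (0.0453) and Prkar2b (0.0950), where the median over genes was 0.529. Atxn1, the ataxin 1 gene, was at 16.3, 17.5 and 17.9 CPM in the LSK-derived group and at 9.75, 7.63 and 8.24 CPM in the GMP-derived group. Nearest to Ly6a were Gbp5, a guanylate-binding protein gene (0.342), and Ctsh, the cathepsin H gene (0.343), with a median over genes of 1.31. Gbp5 was at 9.98, 18.9 and 6.71 CPM against 1.15, 0.891 and 2.02 CPM, so that LSK 45 was the highest library and LSK 46 the lowest of its group, as for Ly6a. Cd48 was followed most closely by Fbxo9 (0.0215) and Zfp266 (0.0363), Cd244 by Asap2 (0.122) and Itpk1 (0.156), Cd93 by Ece1 (0.0932) and Ppt2 (0.0962), and Cd27 by Usp20 (0.0534) and Ksr1 (0.0792).

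Other antigens of stem cell and leukaemia stem cell gates were set beside the members. Of 16 other gate antigens, 12 were tested, 2 were called higher in LSK-derived libraries and 3 in GMP-derived ones. Kit and Flt3, receptors of early progenitors, were the higher ones. Flt3 was at 41.6, 58.6 and 44.9 CPM in the LSK-derived group against 6.43, 15.1 and 17.3 CPM in the GMP-derived group (log2 fold change 1.89 ± 0.36, adjusted p = 0.0134). Fcgr3 and Fcgr2b, the genes of the Fc receptors that define the GMP gate together with CD34, were higher in GMP-derived libraries. Fcgr3 was at 29.8, 49.4 and 22.0 CPM against 167, 150.1 and 171 CPM (log2 fold change -2.27 ± 0.29, adjusted p = 0.00364), with no overlap, and Fcgr2b had a log2 fold change of -0.88 ± 0.20 (adjusted p = 0.0200) and was not called with GMP 19 or LSK 44 left out. Prom1, the CD133 gene, was the remaining one (1.23 ± 1.19 against 13.2 ± 7.63 CPM, adjusted p = 0.0204), a call not made when GMP 19 or LSK 46 was left out or with no filter. Itga2b and Cd9 were not called. So among the genes of the sort gates, Ly6a and the Fc receptor genes differed between leukaemias in the direction of the gate of origin, and Cd34 was not called. Kit, an antigen of both gates, was nevertheless called higher in LSK-derived libraries (log2 fold change 0.75 ± 0.15, adjusted p = 0.0134).

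Of 10 leukaemia stem cell antigens in the table, 9 were tested, 4 were called higher in LSK-derived libraries and 1 in GMP-derived ones. Cd44, the hyaluronan receptor gene, was at 263, 268 and 211 CPM in the LSK-derived group and at 134, 147 and 159.7 CPM in the GMP-derived group (log2 fold change 0.75 ± 0.11, adjusted p = 0.00515). Gpr56, an adhesion receptor gene, was at 306, 275 and 482 CPM against 78.9, 16.7 and 24.2 CPM (adjusted p = 0.0174), and was not called with GMP 19 or LSK 46 left out or with no filter. Clec12a and Havcr2 were the other higher genes, and their calls were lost without 1 and 5 of the 6 libraries. Il3ra, the gene of the IL-3 receptor alpha chain, was at 9.62, 10.8 and 12.5 CPM against 29.8, 36.9 and 46.6 CPM and was called, higher in the GMP-derived group (log2 fold change -1.79 ± 0.19, adjusted p = 0.00148). Cd47, the gene of the signal that restrains phagocytosis, was abundant and not called (630.3 ± 47.5 against 716 ± 31.0 CPM).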

How the data were processed

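RNA-seq of 6 libraries, 3 LSK-derived and 3 GMP-derived, was analysed from raw gene counts deposited by the authors, with no normalisation. Per the submitters' processing notes, tools were STAR 2.4, HTSeq 0.6.1 and DESeq2, and mm9 was the build, with no roles stated. The annotation used for counting was not given in the sources used here. The 10 members and all lists were chosen with earlier results of these data known. edgeR 4.0.16 in R 4.3.3 was used with filterByExpr, TMM scaling and the robust quasi-likelihood test, tested on simulated data first. A gene low in either group could pass the filter through the other, as Ly6a, Igfbp7, Klrb1c, Selp and Igll1 did. P-values were Benjamini-Hochberg adjusted over 13406 genes, with calls at 0.05, and SE was taken as the fold change over the root of F. Alternatives were RLE and upper quartile scaling, DESeq2 1.42.0, limma 3.58.1 voom, no filter, and leaving out each library.

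Total counts of 16640929 to 33885428 make 3 counts, the limit a count of 0 allows, equal to 0.0880 to 0.181 CPM, for counting error only. No replicate pair agreed within sampling noise. Lengths came from GENCODE M21 and promoters from RefSeq GRCm38.p6, neither of the build listed for the counts, and were joined by symbol. All members were named. From each list, up to 4 called genes with the smallest p and up to 2 uncalled genes with the highest mean CPM were named, and for each tested member the 2 genes nearest in pattern, among those with a mean of at least 5 CPM in a group (log2 CPM with a prior count of 2). Other named genes are marked where they appear. The result of 1 listed gene is not reported here.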

Additional observations from a re-analysis of the deposited data

How the results depend on the processing

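Ly6a and Ly6e were called higher in LSK-derived libraries in all 11 alternative fits. Wherever the filter was used, Ly6a passed it through the LSK-derived group, where it was higher. Its calls in those fits are thus no separate support for a difference, and it was also called with no filter. Across the 6 fits that each left out 1 library, the number of members called was 2 to 5 (main 3), 5 without GMP 5, which added Cd34 and Procr, and 2 without LSK 44 or LSK 46, which lost Cd48. Cd48 was also lost without GMP 11, GMP 19 or LSK 45. The number stayed at 3 there because Procr passed the filter and was called. In these fits and without GMP 5, Procr passed through the LSK-derived group, where it was higher, with 2, 2 and 3 counts in the GMP-derived group. Its calls there are thus no separate support for a difference. The number of members called was 3 with the other scalings, DESeq2 and limma voom and 4 with no filter, which added Procr. The number of all genes called was 1750 to 3467 in fits without 1 library (main 3444), with 1830 without LSK 44 and 1750 without LSK 46, and 3296 to 4151 with the other settings. In the same fits the log2 fold change of Cd34 ran from -0.080 without GMP 11 to 1.02 without GMP 5, and that of Cd27 from -0.0027 without LSK 46 to 0.39 without LSK 45. Of these 4 values, that of Cd34 without GMP 5 was called. The cause of these changes was not tested beyond the smaller number of libraries. No paired analysis was possible because the groups share no replicate numbers. Depth limits Slamf1, Procr and Esam, which had 18 counts or fewer in any library.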
